A study of Mus musculus with 5 samples.

Results

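The genes described here build and run motile cilia. They were chosen by symbol as regulators of ciliogenesis and as proteins of the ciliary shaft, and 32 of the 34 listed symbols were among the 32285 genes counted. The others, Dnai1 and Dnai2, were matched only through their older symbols Dnaic1 and Dnaic2 in RefSeq, so their values are given apart. The counts came from the lungs of 5 mouse embryos, dissociated whole at E18.5, just before birth, with 1 droplet library of 3′ ends per embryo. Het denotes the 2 embryos with genotype Zswim8+/- and KO the 3 with Zswim8-/-, so the control embryos also carry 1 disrupted copy of Zswim8. Zswim8 encodes the substrate adaptor of a ubiquitin ligase known for the decay of certain microRNAs. The allele, the strain and the litters are not given in the labels, and p-values measure the spread between these embryos. Values are UMIs (molecular identifiers, each standing for 1 captured transcript) per 1000000 UMIs of the cells summed, written CPM.

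Multiciliated cells of the airway carry many beating cilia that move mucus. Their program starts when Notch signalling falls in an airway progenitor. Mcidas, with E2F partners, switches on centriole amplification, and the transcription factors Foxj1 and the RFX family switch on the genes of the axoneme. The axoneme is the ring of microtubule doublets of the cilium, with dynein arms as motors, radial spokes and a central pair as regulators, and a nexin link that keeps the beat in order.

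The target gene itself gave no check of the labels. Over all kept cells Zswim8 stood at 36.9 and 38.8 CPM in the Het libraries, Het1 and Het2, against 38.2, 38.7 and 40.0 CPM in KO1 to KO3 (log2 fold change 0.04, SE 0.06, edgeR adjusted p = 0.686), and a 3′ count does not show whether the transcript is functional. The libraries held 56608582 to 93708304 UMIs and 3051 to 4634 kept cells. KO1 and KO2 expressed Xist and had Y-linked transcripts at 0.0250 and 0.941 CPM, against 180 to 188 CPM in the other embryos, so sex and genotype are partly confounded. Pairs of libraries shared 17 to 44 barcodes, and no barcode was shared among the ciliated-like cells.

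Ciliated-like cells were found without the described genes. They were 1 cluster of 167 cells named from 26 other cilia genes such as Sntn, Cfap53 and Enkur, all 26 of which had UMIs in that cluster in each of the 5 libraries. The cluster held 62, 29, 20, 28 and 28 cells in Het1, Het2, KO1, KO2 and KO3. These cells were deep, with medians of 29870 to 71232 UMIs per cell, and the largest cell gave 8.66% to 20.5% of the cluster's UMIs in its library. A second cluster expressed secretory genes (Scgb1a1, Cyp2f2, Scgb3a2) beside Foxj1, Deup1 and Myb among its 10 leading genes and is called the mixed airway cluster. It held 247, 153, 64, 61 and 21 cells in the same order of libraries, with median UMIs of 1445, 2369, 1346, 1814 and 22408 per cell, so the KO3 cells of that cluster were much deeper than those of the other libraries. The depth of its median cell was 0.151 of that of its own library, and the erythroid markers, mostly haemoglobins, summed to 34119 and 32569 CPM there in Het against 24779, 9008 and 1264 CPM in KO. What share of its barcodes hold single cells was not tested.

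In the ciliated-like cells the summed level of the 32 genes was 10149 and 9942 CPM in the Het libraries and 10113, 8467 and 9644 CPM in the KO libraries. In the mixed airway cluster the sum ran from 3120 to 4680 CPM, and in secretory-like cells from 162 to 432 CPM. Alveolar, mesothelial, mesenchymal, endothelial and immune-like cells lay between 37.2 and 156 CPM, against 26.7 to 116 CPM in red-cell barcodes, which hold haemoglobin transcripts and free RNA. The ciliated-like cells thus held 61.6% to 76.8% of a library's UMIs of these genes while holding 2.07% to 6.48% of its UMIs, and the mixed airway cluster held 13.3% to 19.4%. Because the clusters were named from genes of the same program, these levels describe the cells and carry no test.

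**Figure D1:**
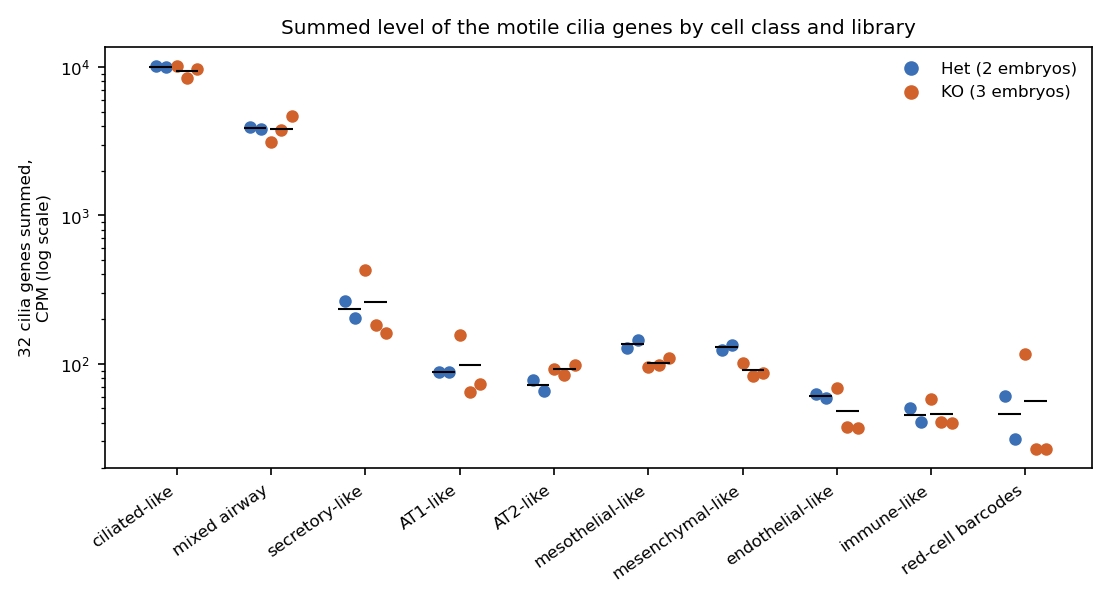
Summed level of the 32 motile cilia genes (vertical axis, CPM, log scale) in each cell class (horizontal axis); points are libraries, blue for Het and orange for KO, and black lines are group means. The ciliated-like cells lie between 8467 and 10149 in all 5 libraries, and the mixed airway cluster between 3120 and 4680.

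The genes differed in their level in the mixed airway cluster relative to ciliated-like cells. For Mcidas, a coactivator of the multiciliated program, the level in the mixed airway cluster was 0.98 of that in ciliated-like cells (median of 5 libraries, range 0.623 to 1.22). Ccno, a cyclin-like protein needed for centriole amplification, stood at 0.907 (0.719 to 1.03), and Foxj1, the forkhead factor that drives the axonemal genes, at 0.701 (0.560 to 0.809). The structural genes lay lower, from 0.554 for the outer-arm dynein Dnah11 down to 0.151 (0.127 to 0.225) for Ccdc153 and 0.210 (0.0678 to 0.235) for Tmem212. Rfx2 and Rfx3 stood at 0.510 and 0.529. Foxj1 was among the leading genes that set this cluster apart, so its ratio follows in part from that choice. Both clusters share a library, and the mixed airway cluster also holds secretory transcripts, so the ratios describe these cells and were not tested.

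**Figure D2:**
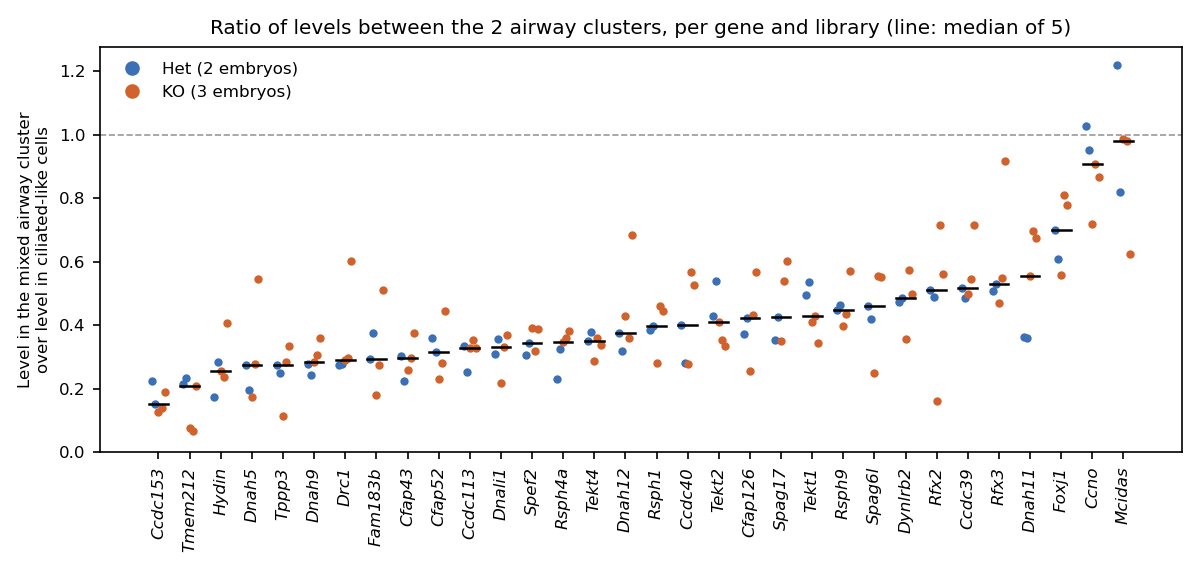
Level of each gene in the mixed airway cluster divided by its level in ciliated-like cells (vertical axis, ratio), with genes in order of the median; points are the 5 libraries (blue Het, orange KO), black lines are medians and the dashed line is equality. Ccdc153 has the lowest median at 0.151, and Foxj1, Ccno and Mcidas have the highest at 0.701, 0.907 and 0.98.

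Not every gene of the list was confined to airway cells. Of the 32 genes, 26 had over 80% of their UMIs in both airway clusters together (mean of 5 libraries). The 6 exceptions were Rfx3, Rfx2, Dnah11, Ccno, Tppp3 and Rsph9. Rfx3, an RFX transcription factor also used outside ciliated cells, had 68.0% of its UMIs elsewhere, with 24.0% in AT2-like cells, the surfactant-making cells of the alveolus. Dnah11 had 23.1% in AT2-like and 11.3% in AT1-like cells, the flat gas-exchange cells. Tppp3, a small tubulin-binding protein, had 14.02% in mesenchymal-like cells. In mesothelial-like cells Rfx2 reached 22.3 and 29.97 CPM in the Het libraries against 14.2, 9.64 and 11.5 CPM in the KO libraries. No fit was run in mesothelial-like cells, so that difference was not tested.

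RFX factors bind X-boxes, and 5 of the 28 genes with a promoter in the RefSeq table (GRCm38.p6, 250 bases before to 50 after the start) held a match to the X-box on either strand, 17.9% against 1.75% of 27025 genes. The half-site GTTGCCA was found in 17.9% of the 28 genes and in 5.03% of all, and partly overlaps the X-box matches. The forkhead core GTAAACA was found in 3.57% and 4.05%. The windows are shown because the factors Rfx2 and Rfx3 and these promoters stand in the same list. Each is written 5′ to 3′ on the gene's own strand with the match in capitals, and a match is a description of the sequence only.
Tekt2 (chr4:126325696-126325725, minus strand, X-box): agggggcgGTTGCTCGGCAACcagagccgc
Dynlrb2 (chr8:116504956-116504985, plus strand, X-box): cctgcctgGTTGCCTAGCAACgggggaagc
Hydin (chr8:110266948-110266977, plus strand, X-box): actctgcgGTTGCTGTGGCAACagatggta
Ccno (chr13:112987575-112987604, plus strand, X-box): gggctgcgGTTGCCACGGTGACgacagacg
Mcidas (chr13:112993662-112993691, plus strand, half-site): ggggaagccagGTTGCCAggttggttaacg
Tekt1 (chr11:72361879-72361908, minus strand, half-site): gcgtccgtccgGTTGCCAtagagaccgcag
The X-box of Tekt2 lay at -29 to -17 from 1 annotated start and at -71 to -59 from the other. Counted in the same way, it lay at -21 to -8 in Hydin, at -51 to -39 in Dynlrb2 and at -219 to -206 in Ccno. The match in Spef2, the fifth gene, lay after the start, at 8 to 22, and is not shown. Ccno (GRCm38 chromosome 13, 112987802 to 112990777) and Mcidas (112993845 to 113000394) are neighbours on the same strand.

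Over all kept cells of a lung, 31 of the 32 genes had lower levels in KO than in Het, with a median log2 fold change of -0.87 against 0.01 over the 17716 genes tested, of which 49.1% were below 0. In this fit 1 gene, Tppp3, fell past the threshold (edgeR quasi-likelihood, Benjamini-Hochberg adjusted p under 0.05 over all genes), where 2.82% of all genes were called lower. At an unadjusted p under 0.05, 25 of the 32 were lower, against 14% of all genes. The groups did not overlap in 19 of the 32, all lower in KO, against 23.6% of all genes lower without overlap. DESeq2 called 17 of the 32, all lower, against 11.9% of all genes in either direction. Such a sum cannot tell fewer cells of a type from less RNA per cell, and Het1 alone held 62 of the 167 ciliated-like cells: without Het1 the median was -0.53 and 5 genes were under an unadjusted p of 0.05, and without KO2 3 genes were called, against 2.13% of all genes.

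Among the regulators over all kept cells, none passed the threshold. Foxj1 stood at 56.7 and 39.3 CPM in Het and at 19.2, 38.8 and 22.3 CPM in KO (log2 -0.84, SE 0.32, adjusted p = 0.170). The lowest Het value lay just above the highest KO value. Rfx2 was at 8.15 and 7.32 CPM against 5.21, 6.08 and 4.21 CPM (log2 -0.59, SE 0.17). Both factors were lower in each KO library than in either Het library. Ccno was at 26.5 and 21.9 CPM in Het and 17.1, 23.9 and 15.9 CPM in KO (log2 -0.35). Mcidas was at 5.98 and 3.91 CPM against 3.19, 6.73 and 3.098 CPM (log2 -0.19). Rfx3 was at 14.4 and 10.7 CPM against 13.3, 14.1 and 13.2 CPM (log2 0.11). These last 3 genes overlapped between the groups, and Rfx3 was the only member with a positive value.

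The tektins and other microtubule-bound proteins had a median log2 fold change of -0.91, and all 6 were under an unadjusted p of 0.05. Tppp3 (GRCm38 chromosome 8, 105467493 to 105471526) fell from 100 and 80.7 CPM in Het to 39.2, 49.7 and 34.3 CPM in KO (log2 -1.14, SE 0.17, edgeR adjusted p = 0.0313). Its groups were far apart, but the call was lost without Het1 (adjusted p = 0.207), Het2 (0.153), KO1 (0.0525) or KO3 (0.0783) and with embryo sex as a covariate (0.195). Over all genes, those fits called 2, 3, 809 and 73 in that order and 1 with sex, against 677 in the main fit. Tekt2, a filament protein of the doublet wall, was at 15.1 and 11.3 CPM against 7.41, 9.11 and 6.68 CPM (log2 -0.77, SE 0.18, adjusted p = 0.0732).

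Of the 6 axonemal dynein chains, 5 were under an unadjusted p of 0.05 and their median was -0.94. Dnah9, a heavy chain of the outer arm in the distal cilium, was at 11.7 and 6.90 CPM in Het and at 2.96, 4.55 and 2.29 CPM in KO (log2 -1.51, SE 0.34, adjusted p = 0.0677). Dnah5, the other main outer-arm heavy chain, was at 12.2 and 9.76 CPM against 5.08, 7.20 and 3.75 CPM (log2 -1.04, SE 0.27, adjusted p = 0.0882). Both were lower in each KO library, and neither passed the threshold. The older symbols Dnaic1 and Dnaic2, intermediate chains of the outer arm, had log2 values of -0.70 and -0.63 with overlapping groups.

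Among the 11 genes of radial spokes, the central pair and dynein regulation, 8 were under an unadjusted p of 0.05 (median -0.85). Cfap43, an axonemal protein needed for a normal beat, was at 10.1 and 6.52 CPM in Het against 3.64, 3.89 and 2.26 CPM in KO (log2 -1.36, SE 0.28, adjusted p = 0.0591). Hydin, a large central pair protein, was at 14.9 and 9.18 CPM against 5.99, 7.78 and 4.24 CPM (log2 -1.01, SE 0.30). The radial spoke head gene Rsph9 was at 24.8 and 17.4 CPM against 12.3, 16.0 and 11.2 CPM (log2 -0.68, SE 0.20). In all 3 the groups did not overlap.

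The remaining cilia genes had a median of -1.11. Ccdc153 was at 50.9 and 31.97 CPM in Het and 16.2, 27.5 and 13.6 CPM in KO (log2 -1.12). Fam183b was at 29.6 and 16.5 CPM against 9.91, 14.7 and 7.44 CPM (log2 -1.11). Tmem212 was at 31.8 and 16.7 CPM against 11.2, 12.8 and 5.79 CPM (log2 -1.30, SE 0.39). Each lay lower in the 3 KO libraries than in both Het libraries, with adjusted p-values of 0.113, 0.120 and 0.114. The 17 genes not described singly had log2 values from -1.08 (Rsph4a) to -0.57 (Dnah11), with adjusted p-values of 0.124 to 0.267.

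Other genes of the pathway were read from the same fit. Of 36 further axonemal genes, all 36 were below 0 with a median of -0.87, and Cfap100 was the 1 of 36 that fell, against the 2.82% of all genes called lower, from 2.88 and 1.88 CPM to 0.809, 1.03 and 0.668 CPM (log2 -1.52, SE 0.28, adjusted p = 0.0461). All 14 measured genes of dynein arm assembly and docking were below 0 (median -0.62), with 0 called and 5 at an unadjusted p under 0.05 by edgeR. Intraflagellar transport, the cargo system shared with the primary cilia of other cells, had a median of -0.15, with 0 of 24 called and 5 unadjusted. Multiciliation control and centriole amplification had a median of -0.16, with 0 of 16 called and 4 unadjusted, and the 12 Notch pathway genes a median of 0.06, with 0 called and 4 unadjusted. These unadjusted counts stand against 4503 of all 17716 genes tested, in either direction.

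**Figure D3:**
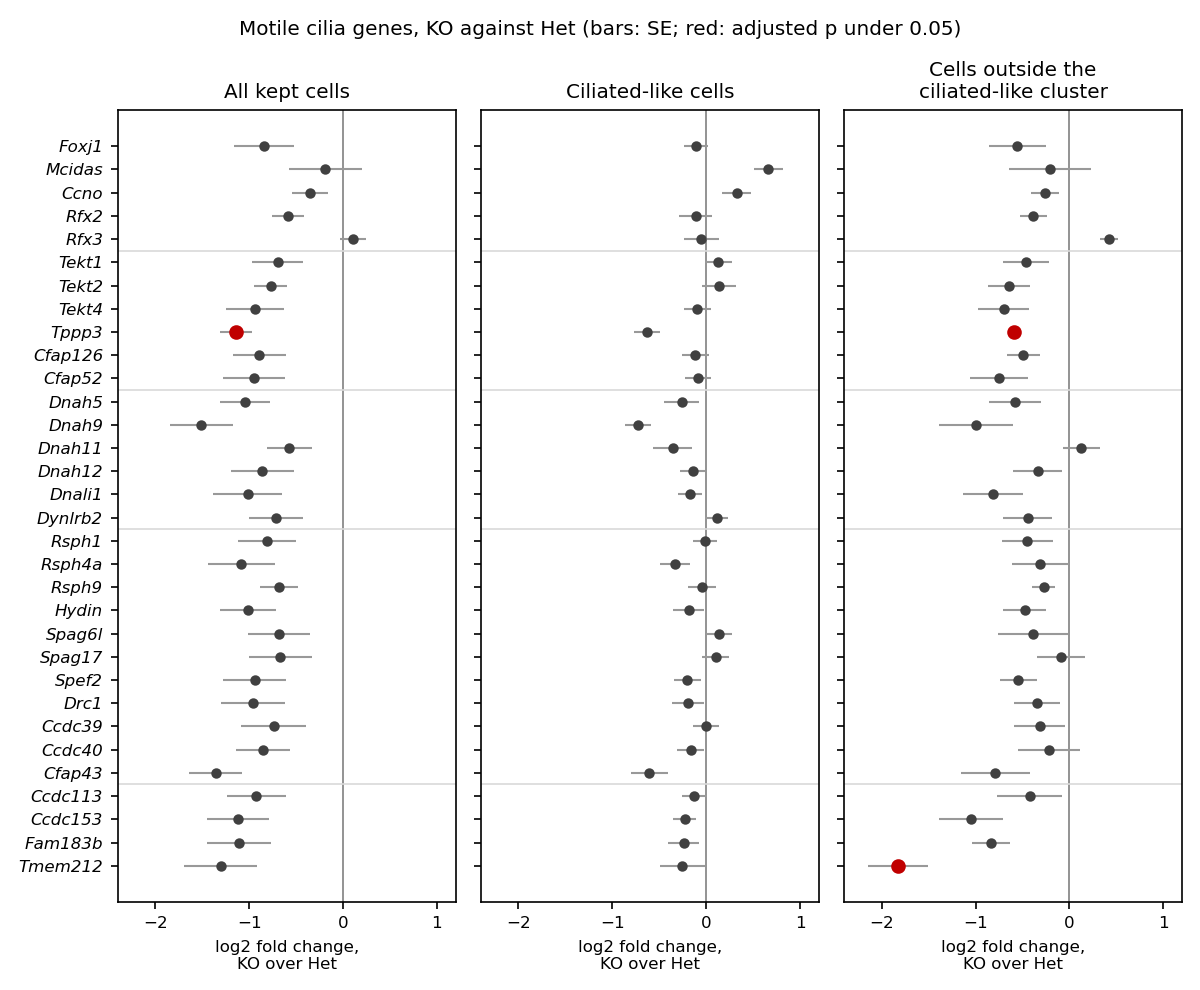
log2 fold change of KO over Het (horizontal axis) with its standard error for each of the 32 genes (vertical axis, in order of role), in all kept cells, in ciliated-like cells and in all other cells; red points passed an adjusted p under 0.05. In all kept cells 31 of 32 lie below 0, in ciliated-like cells the points lie near 0 with Mcidas highest at 0.66 and Dnah9 lowest at -0.72, and outside that cluster Tppp3 and Tmem212 passed.

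Cell numbers were compared as shares. Ciliated-like cells made up 6.43% and 3.97% of the epithelial cells in Het and 5.78%, 7.59% and 6.15% in KO (5.20% ± 1.74, SD, n = 2, against 6.51% ± 0.954, SD, n = 3; exact permutation test, two-sided p = 0.5). Of all kept cells they were 1.34% and 0.714% against 0.656%, 0.865% and 0.721%, so the groups overlapped on both scales. The first comparison depended on the clustering. With Leiden resolution 2 the share of epithelial cells was 2.33 points higher in KO, and with doublets kept 1.70 points higher (exact permutation p = 0.1 in each). Single cells with UMIs of at least 5 of the 26 markers were 4.10% and 2.83% of kept cells in Het against 2.23%, 2.41% and 1.60% in KO, lower without overlap (exact permutation p = 0.1), and 17.6% against 17.9% of epithelial cells (exact permutation p = 1). The mixed airway cluster made up 5.33% and 3.77% of kept cells in Het and 2.10%, 1.89% and 0.541% in KO (4.55% ± 1.11 against 1.51% ± 0.844; exact permutation p = 0.1). All epithelial cells together were 20.8% and 18.0% of kept cells in Het and 11.3%, 11.4% and 11.7% in KO (exact permutation p = 0.1). The shares of the mixed airway cluster and of all epithelial cells did not overlap, and 0.1 is the smallest p that 2 against 3 embryos allow. Of the epithelial cells, the mixed airway cluster averaged 23.3% ± 3.32 for the 2 Het libraries and 13.2% ± 7.51 for the 3 KO libraries (SD; exact permutation p = 0.2), also without overlap. Inside the mixed airway cluster the secretory markers summed to 44772 and 62405 CPM in Het and to 23386, 20195 and 24591 CPM in KO, and the erythroid markers also differed as given above. The part of these markers in the size of the cluster was not tested.

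**Figure D4:**
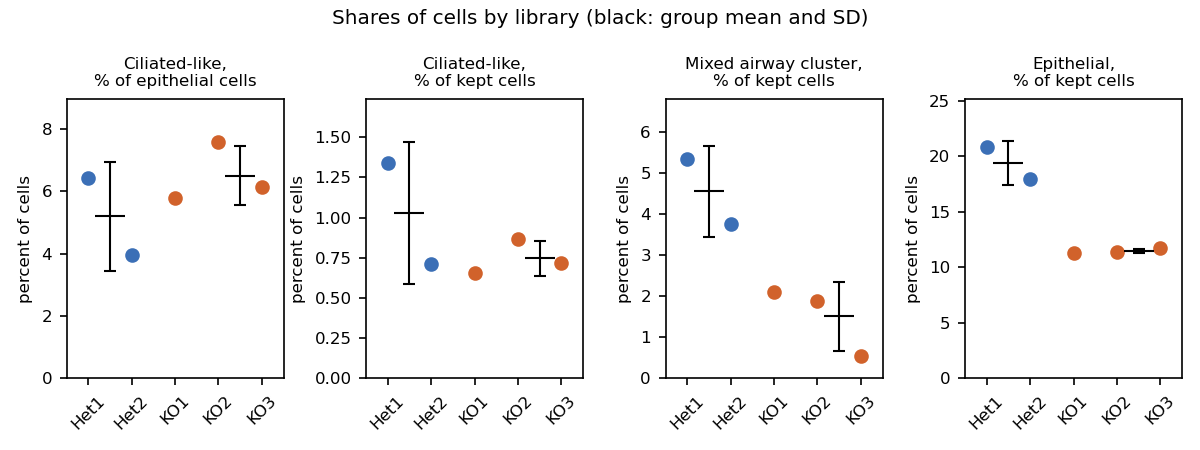
Share of cells in each library (vertical axes, percent of cells; horizontal axes, libraries; blue Het, orange KO; black, group mean and SD). Ciliated-like cells overlap between the groups on both denominators, while the mixed airway cluster and the epithelial cells are lower in each of the 3 KO libraries, at 0.541% to 2.10% and 11.3% to 11.7% of kept cells.

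Within the ciliated-like cells the 32 genes stood near their Het levels in KO as a group, with a median log2 fold change of -0.12 against 0.01 over the 11441 genes tested, and 25 of 32 lay below 0 against 48.8%. By edgeR 0 of the 32 were called, where 0.288% of all genes were called, and 4 were under an unadjusted p of 0.05, against 8.79% of all genes. DESeq2 called 2 of them, against 0.315% of all genes. The median ciliated-like cell held 96.5 and 103 UMIs of these genes per 10000 in the Het libraries, against 105, 103 and 103 in the KO libraries. The standard errors of single genes ran from 0.12 to 0.24, so small changes of single genes could not be told from 0. The groups did not overlap in 8 of 32 genes (6 lower, 2 higher), against 24.4% of all genes.

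The highest fold changes in ciliated-like cells were those of the regulators Mcidas and Ccno. Mcidas was at 52.9 and 60.6 CPM in Het and at 75.1, 91.1 and 99.2 CPM in KO (log2 0.66, SE 0.16, adjusted p = 0.136). Ccno was at 185 and 228 CPM against 240, 239 and 297 CPM (log2 0.32, SE 0.15, adjusted p = 0.578). Both early genes were higher in each KO library, without passing the threshold. Among single cells with UMIs of at least 5 of the 26 markers, all 32 genes were below 0, Mcidas and Ccno included. Foxj1 was at 606 and 680 CPM in Het and at 555, 559 and 674 CPM in KO (log2 -0.11, SE 0.13). Rfx2 was at 65.2 and 59.0 CPM against 75.1, 54.0 and 48.9 CPM (log2 -0.11). Rfx3 was at 89.4 and 75.7 CPM against 107, 72.9 and 67.4 CPM (log2 -0.05). These 3 transcription factors overlapped between the groups.

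Of the axonemal genes, 3 were lower at an unadjusted p under 0.05 in ciliated-like cells, and none passed the threshold. Dnah9 (GRCm38 chromosome 11, 65831282 to 66168551) was at 150 and 143 CPM in Het and at 103, 81.4 and 85.9 CPM in KO (log2 -0.72, SE 0.14, adjusted p = 0.0642). Tppp3 was at 1095 and 1216 CPM against 897, 657 and 692 CPM (log2 -0.63, SE 0.14, adjusted p = 0.116). Cfap43 was at 125 and 132 CPM against 120, 67.0 and 76.3 CPM (log2 -0.61, SE 0.20, adjusted p = 0.361). In each the KO libraries lay below both Het libraries, with KO1 nearest to Het. Without KO1 all 3 were called lower, against 0.477% of all genes called, with adjusted p-values of 0.0419 for Dnah9, 0.0398 for Tppp3 and 0.0419 for Cfap43. That fit leaves out the KO library nearest to Het in these genes. Without KO2, without KO3 or with embryo sex as a covariate, 0 of the 32 were called, against 13, 44 and 96 of all genes.

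The other dynein chains did not separate as far. Dnah5 was at 158 and 206 CPM in Het and 199, 133 and 130 CPM in KO (log2 -0.26). Dnah11 was at 76.9 and 55.5 CPM against 65.4, 40.0 and 57.7 CPM (log2 -0.36). Both overlapped between the groups. Dnali1, a light intermediate chain of the inner arms, was at 312 and 296 CPM against 262, 265 and 282 CPM without overlap (log2 -0.17, SE 0.12). Rsph4a, of the radial spoke head, was at 146 and 112 CPM against 119, 93.6 and 102 CPM (log2 -0.33), and the central pair gene Spef2 at 201 and 169 CPM against 145, 165 and 170 CPM (log2 -0.20). Ccdc153 was at 678 and 685 CPM against 638, 544 and 569 CPM (log2 -0.23), and Fam183b at 382 and 320 CPM against 372, 270 and 257 CPM (log2 -0.24). Of these, Dnali1 and Ccdc153 were lower in each KO library. The other 17 genes had log2 values from -0.26 (Tmem212) to 0.14 (Tekt2), with adjusted p-values of 0.792 to 0.999.

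Of the wider pathway, 0 genes of the 5 lists were called by edgeR in these cells, where 8.79% of all genes were under an unadjusted p of 0.05. Multiciliation control and centriole amplification lay mostly above 0, with a median of 0.27, 3 of 16 below 0 and 6 unadjusted. Among these, Stil, needed for the duplication of centrioles, was at 46.2 and 52.8 CPM in Het and 73.9, 70.4 and 84.4 CPM in KO (log2 0.62, SE 0.15, adjusted p = 0.161). Deup1, which organises the deuterosomes where centrioles multiply, was at 240 and 333 CPM against 342, 433 and 535 CPM (log2 0.61, SE 0.19, adjusted p = 0.326). On the other side of 0, Ccdc78, another protein of centriole amplification, was at 124 and 135 CPM against 95.7, 90.2 and 85.1 CPM (log2 -0.52, SE 0.13, adjusted p = 0.181). In all 3 the groups did not overlap, and these genes were chosen after their values were seen. The further axonemal genes had a median of -0.13, with 31 of 36 below 0 and 6 unadjusted. Dynein arm assembly stood at -0.02 (2 unadjusted), intraflagellar transport at -0.08 (3 unadjusted) and the 10 Notch genes tested at 0.02 (0 unadjusted).

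Markers of other cells differed between libraries inside the ciliated-like cluster. The 16 secretory markers, 13 of which had UMIs in each library, summed to 38831 and 45750 CPM in Het and to 14422, 21577 and 21887 CPM in KO. The 12 AT2 markers were highest in KO3, at 2579 CPM against 603 to 950 CPM in the other libraries, as were the 16 mesenchymal markers, at 527 CPM against 78.9 to 108 CPM. Between 12 of 20 cells (KO1) and 26 of 28 cells (KO2) had UMIs of at least 3 endothelial, mesenchymal or immune markers. Leaving those cells out left 16, 5, 8, 2 and 8 cells in Het1 to KO3, in which 3069 genes could be tested. Of the 32 cilia genes, 0 were called there by edgeR and 0 were under an unadjusted p of 0.05, with 16 below 0 and a median of -0.0016. The part of the secretory and AT2 transcripts in the levels of the cilia genes was not tested. The count also depended on the choice of cells: among single cells with UMIs of at least 5 of the 26 markers, whatever their cluster, 25 of the 32 genes were called lower in KO, with a median of -0.80, against 7.68% of all genes called. Of the UMIs of those cells, AT2-like cells held 6.90% and 3.94% in Het and 34.8%, 33.0% and 38.3% in KO, and the part of that difference in the calls was not tested.

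Outside the ciliated-like cluster the 32 genes were at low levels, and 30 of them were below 0 with a median log2 fold change of -0.45, against 48.2% of all genes below 0. Here 2 genes fell, Tppp3 and Tmem212, against 4.4% of the 17437 genes tested being called lower. Of the 32, 12 were under an unadjusted p of 0.05, 11 lower and 1 higher, against 26.9% of all genes. The mixed airway cluster was part of this sum, and with that cluster left out as well the median was -0.07, 19 genes were below 0 and neither gene was called. Without Het1 the median was -0.15, with 0 of the 32 called and 4 of all 17700 genes tested.

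Tppp3 was the steadiest across libraries here, at 31.0 and 31.0 CPM in Het and 20.7, 20.6 and 20.3 CPM in KO (log2 -0.59, SE 0.05, adjusted p = 0.00943). This sum also cannot tell a change in the mix of cell classes from a change in level. Mesenchymal-like cells held 10.8% and 11.3% of the UMIs of kept cells in Het and 26.5%, 14.8% and 18.4% in KO. Tmem212 (GRCm38 chromosome 3, 27866066 to 27896368) was at 4.36 and 2.47 CPM in Het and 1.22, 0.692 and 0.984 CPM in KO (log2 -1.83, SE 0.32, adjusted p = 0.0312). In this sum the Tppp3 call was lost without Het1 (adjusted p = 0.103) or Het2 (0.102), and the Tmem212 call without Het1 (0.194), Het2 (0.0988), KO2 (0.0706) or KO3 (0.0927). Both calls were also lost with embryo sex as a covariate (0.123 and 0.284). Of all genes, the main fit called 1070. Without Het1, Het2, KO2 or KO3 the fit called 4, 23, 431 and 348 genes, and with sex as a covariate 1. In a joint fit, the change of Tmem212 differed between ciliated-like and other cells (difference 1.42, SE 0.22, edgeR adjusted p = 0.00496), the 1 member of 32 to do so, where 0.447% of genes were called. That call was lost without Het1 or without KO1.

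Among the regulators outside the cluster, Rfx3 was on the other side of 0 from the rest. Rfx3 was at 9.25 and 7.85 CPM in Het and 11.1, 11.3 and 11.9 CPM in KO, without overlap (log2 0.42, SE 0.10, adjusted p = 0.0626). DESeq2 gave Rfx3 an adjusted p of 0.0179, where it called 2226 of all 17437 genes. With the mixed airway cluster left out as well edgeR gave 0.0298, where 1184 of 17193 genes were called. Rfx2 was at 4.20 and 5.08 CPM against 3.67, 3.79 and 3.24 CPM (log2 -0.38, SE 0.14). Foxj1 was at 18.3 and 11.2 CPM against 7.67, 13.8 and 8.60 CPM, Ccno at 15.5 and 12.9 CPM against 12.2, 13.6 and 9.96 CPM, and Mcidas at 2.71 and 1.43 CPM against 1.63, 2.69 and 1.08 CPM. These last 3 overlapped between the groups.

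Structural genes outside the cluster were at a few CPM. Ccdc153 was at 7.02 and 3.30 CPM in Het and 2.91, 2.69 and 1.94 CPM in KO (log2 -1.05), and Fam183b at 4.91 and 3.20 CPM against 2.17, 2.44 and 2.20 CPM (log2 -0.83). Tekt2 was at 3.63 and 3.26 CPM against 2.78, 2.24 and 1.66 CPM (log2 -0.64), and Tekt4 at 2.78 and 1.86 CPM against 1.40, 1.79 and 1.11 CPM (log2 -0.70). All 4 were lower in each KO library, as were 24.6% of all genes tested, and none passed the threshold. Cfap126, a protein of the ciliary base, was at 8.36 and 6.12 CPM against 5.17, 5.82 and 4.49 CPM (log2 -0.49), and Spef2 at 3.46 and 2.71 CPM against 2.37, 2.26 and 1.74 CPM (log2 -0.55). Dnali1 was at 4.27 and 2.83 CPM against 1.504, 2.85 and 1.69 CPM (log2 -0.81), and Dnah9 at 2.00 and 0.910 CPM against 0.816, 0.855 and 0.538 CPM (log2 -0.996). Of these last 4, Dnali1 overlapped between the groups. The 17 genes not named ran from -0.79 (Cfap43) to 0.13 (Dnah11), with adjusted p-values of 0.187 to 0.851. Among the 102 other pathway genes 1 was called in this sum, where 302 of all 17437 genes tested were called higher and 768 lower. That gene was Nrarp, a Notch target, which rose from 8.74 and 7.68 CPM to 14.2, 12.7 and 11.5 CPM (log2 0.64, SE 0.12, edgeR adjusted p = 0.0368).

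In AT2-like cells, where 12 of the 32 genes passed the filter on low counts, Rfx3 and Dnah11 rose and Ccno fell, against 18.2% of the 13259 genes tested being called. Rfx3 was at 17.5 and 13.9 CPM in Het and 23.8, 20.9 and 23.5 CPM in KO (log2 0.53, SE 0.15, adjusted p = 0.0330). Red-cell barcodes held 0.383 to 4.33 CPM of Rfx3. Dnah11 (GRCm38 chromosome 12, 117877982 to 118199043) was at 3.17 and 4.47 CPM against 6.35, 7.996 and 7.91 CPM (log2 0.97, SE 0.23, adjusted p = 0.0172), with 0.165 to 0.698 CPM in red-cell barcodes. Ccno was at 13.99 and 12.4 CPM against 10.7, 6.96 and 8.33 CPM (log2 -0.64, SE 0.19, adjusted p = 0.0472). In none of the 3 genes did the groups overlap. AT2-like cells with UMIs of at least 5 of the 26 ciliated markers numbered 3 and 1 in Het and 7, 15 and 12 in KO. They held 38 of 700 and 12 of 580 UMIs of the 32 genes in Het AT2-like cells. In KO they held 94 of 522, 191 of 778 and 344 of 1120. Their part in these calls was not tested. The class joins 2 clusters, and different ones hold most of it in each genotype. The cluster led by Retnla, Lyz1 and S100g held 212 and 128 of its cells in Het against 36, 34 and 77 in KO. The other, led by Cldn18 and Slc34a2, held 111 to 175 cells per library. In that second cluster alone Rfx3 (log2 0.64, adjusted p = 0.0092) and Dnah11 (log2 0.75, adjusted p = 0.0303) were called higher and Ccno was not called (log2 -0.50, adjusted p = 0.124), where 21.1% of all genes were called. In the Lyz1 cluster alone 0 of the 4 members tested were called, with 1 unadjusted and 2.75% of all genes called. The calls depended on the embryos and the fit: without Het1 or without KO3 0 members were called, as with embryo sex as a covariate, and DESeq2 called Dnah11 alone. Those fits called 1055, 2000, 688 and 1877 of all genes in that order, against 2416 in the main fit.

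In mesenchymal-like cells Tppp3 was at 56.2 and 80.3 CPM in Het and 36.2, 29.7 and 36.9 CPM in KO (log2 -0.99, SE 0.16, edgeR adjusted p = 0.0554). There 0 of the 13 members tested were called, where 0.5% of 13392 genes were called. At an unadjusted p under 0.05 were 4 of the 13 members, against 1913 of the 13392 genes. DESeq2 called Tppp3 lower there (adjusted p = 9.05e-05), where it called 225 of the 13392 genes. The class joins 6 clusters in changing mix: that led by Higd1b and Gucy1a1 held 19 and 21 cells in Het against 96, 73 and 51 in KO, and the smallest, of 95 cells, was led by the cardiac muscle genes Ttn and Myh6. Without the cardiac cluster edgeR called Tppp3 lower (log2 -0.99, adjusted p = 0.0225), 1 of 12 members tested, against 0.897% of all genes. In AT2-like cells the same gene was at 14.5 and 11.2 CPM against 16.0, 19.7 and 15.9 CPM (log2 0.43, adjusted p = 0.113). The difference between these cell classes was not tested.

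**Figure D5:**
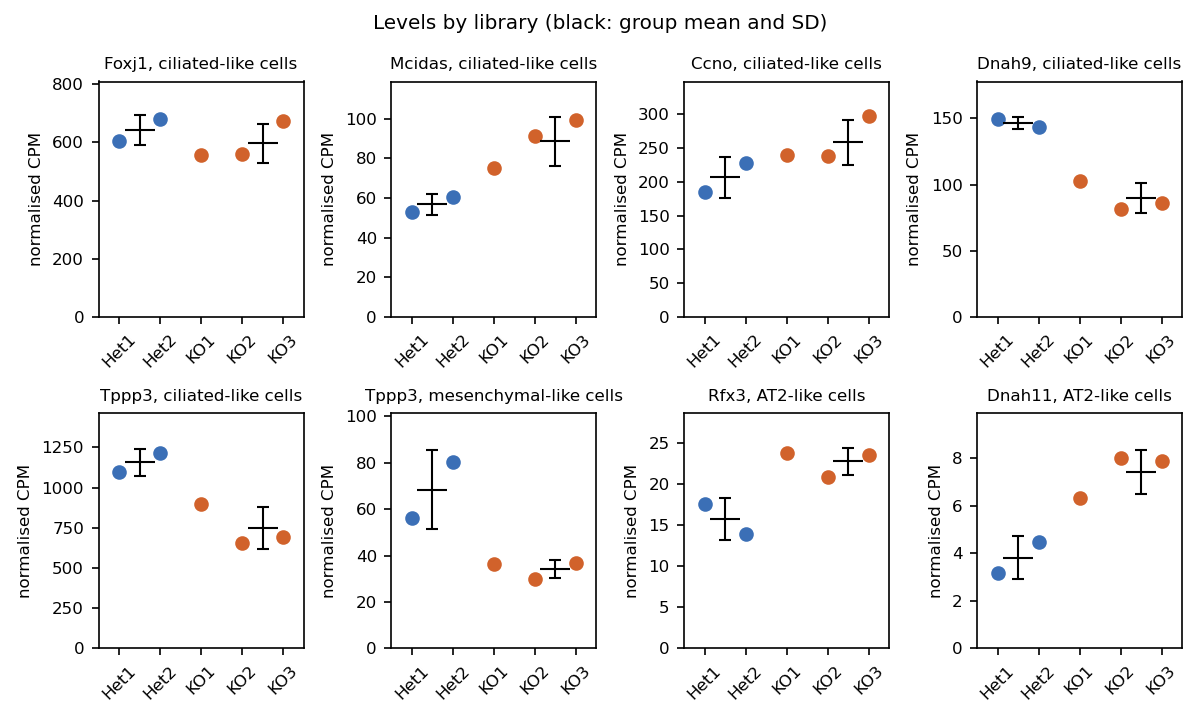
Normalised level (vertical axes, CPM) of chosen genes in each library (horizontal axes; blue Het, orange KO; black, group mean and SD). Mcidas and Ccno are higher and Dnah9 and Tppp3 lower in each of the 3 KO libraries of ciliated-like cells, Foxj1 overlaps, and Rfx3 and Dnah11 are higher in AT2-like cells of KO.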

How the data were processed

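Droplet-based 3′ libraries from 5 lungs were counted by the authors. The deposited files give UMI counts, whole numbers for each gene in each barcode, from Cell Ranger 4.0.0 per the file headers, on build mm10 per the submitters' processing notes. The gene annotation and the barcode filter are not given in the sources used here. The rest was computed from those counts.

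A barcode was kept with 500 or more genes and no more than 15% of UMIs from mitochondrial genes. Likely doublets were scored by their closeness to simulated pairs (2 per barcode, 20 components) and removed at 0.8% per 1000 cells. Kept cells were clustered on 2000 variable genes, leaving out the described genes, sex-linked, mitochondrial, haemoglobin and Zswim8 genes (scanpy 1.11.5, 30 components, 15 neighbours, Leiden resolution 1). A cluster took a class name when at least 3 markers of that class counted (found in 20% of its cells, log2 fold above 0.5) and the 5 highest had a mean log2 fold above 1. The last condition was set after the clusters were seen, and names rebuilt this way can differ from those of the study. An epithelial cluster with a described gene among its 10 leading genes was kept apart as the mixed airway cluster.

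Cells are not replicates, so counts were summed per library and compared with edgeR 4.0.16 (quasi-likelihood, TMM scaling, filterByExpr, two-sided, Benjamini-Hochberg over all genes tested). CPM in the comparisons are TMM-scaled, and levels by class and ratios are plain. Total counts per library, given with the first results, limit precision, and low genes carry counting error. Shares were compared by exact permutation of the 10 possible splits. DESeq2 1.42.0 and other filters, scalings, clusterings and left-out libraries were alternatives. The fits in AT2-like and mesenchymal-like cells, the fit of the difference between ciliated-like and other cells, thinning to 10000 UMIs per cell and the settings on the mixed airway cluster and on clusters within the AT2-like and mesenchymal-like classes were added after seeing the data. Members and lists were chosen with earlier results of these data known.

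In each of the 3 planned fits, values are given for the 5 regulators and for the 10 other members with the smallest p, and of each pathway list for called genes. Coordinates are from GENCODE M21 (GRCm38) and promoters from RefSeq. Tested on simulated data in which 200 genes differed by 1 on the log2 scale, the fit of all kept cells recovered 68.5% with 16 false calls among 17716 genes, and that of ciliated-like cells 54% with 10 among 11441 genes.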

Additional observations from a re-analysis of the deposited data

Results flagged for a closer look

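The change of Tmem212 differed between ciliated-like and other cells. In a joint fit with the library as a block, the log2 fold change of KO over Het was higher by 1.42 in ciliated-like cells than in all other cells (SE 0.22, edgeR adjusted p = 0.00496), with -0.26 inside and -1.83 outside the cluster in the separate fits. It was the 1 member past the threshold of 32, where 0.447% of 17018 genes were called. Without Het1 or without KO1 0 members were called, with 1 and 6 at an unadjusted p under 0.05, and without Het2 and KO2 2 and 4 were called. Of all genes, 49 and 25 were called without Het1 and KO1, and 75 and 173 without Het2 and KO2. In the mixed airway cluster, which is part of the other cells, the level of Tmem212 was 0.210 of that in ciliated-like cells at the median.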

How the results depend on the processing

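Counts of called members moved with the processing, as did the counts over all genes given beside them. Over all kept cells, where 1 was called, DESeq2 called 17, the stricter cell filter (1000 genes, 10% mitochondrial UMIs) 2, and embryo sex as a covariate 0, and leaving out a library gave 0 to 3. Of all 17716 genes there, the main fit called 677, DESeq2 2107 and sex 1. The stricter filter called 584 of 17491 genes, and left-out libraries gave 2 to 809. In ciliated-like cells, where 0 were called (4 unadjusted), DESeq2 called 2, no filter on low counts 4 (1 higher), members kept in the clustering 2, the cluster joined with the mixed airway cluster 2 and single cells with 5 markers 25. Leaving out a library gave 0 to 3 there. Of all genes, the main fit called 33 of 11441, DESeq2 36 and no filter 296 of 18933. Members kept in the clustering gave 70 of 12167, the joined cluster 87 of 12459 and single cells with 5 markers 1035 of 13468. Left-out libraries gave 10 to 54. Among single cells with 5 markers all 32 genes were below 0, and 25 of the 32 kept the sign of the main fit. Of those that changed sign, Tekt1 (-0.65), Tekt2 (-0.64), Dynlrb2 (-0.59) and Spag6l (-0.56) were called lower. Mcidas and Ccno, above 0 in the main fit, changed sign without being called. Outside that cluster, where 2 were called, DESeq2 called 5, sex as a covariate 0, doublets kept 1, single cells with 5 markers 1, the mixed airway cluster left out as well 1 (higher), and left-out libraries 0 to 2. Of all 17437 genes there, the main fit called 1070, DESeq2 2226 and sex 1. Doublets kept gave 879, single cells 1010, the mixed airway cluster left out 1184, and left-out libraries 4 to 1747. In AT2-like cells, where 3 were called, DESeq2 called 1, sex as a covariate 0, the cluster led by Lyz1 alone 0, and left-out libraries 0 to 2. Of all 13259 genes there, the main fit called 2416, DESeq2 1877 and sex 688. The Lyz1 cluster alone gave 242 of 8791, and left-out libraries 1008 to 2607. In mesenchymal-like cells, where 0 were called (4 unadjusted), DESeq2, no filter, a minimum of 10 UMIs and leaving out the cardiac cluster each called 1, and left-out libraries 0 to 1. Of all genes there, the main fit called 67, and these settings 225, 268, 92 and 119 in that order. Left-out libraries gave 6 to 45. The difference between ciliated-like and other cells gave 0 to 4 called members without a library, against 25 to 173 of all genes. The ciliated-like share of epithelial cells was 1.31 percentage points higher in KO, 0.0759 to 2.54 with a library left out, and -8.75 when joined with the mixed airway cluster. The cause of these moves was not tested. With Leiden resolution 0.5 no separate ciliated cluster was found, so no value was obtained.

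With the replicate number as a block, 0 members were called over all kept cells, 2 in ciliated-like cells (Dnah9 and Tppp3) and 0 outside them, and the pair difference of the share was 1.48 points. Of all genes, those fits called 8, 134 and 73. The labels tie numbers to no litter. Deviations from the group means had correlations of -0.151 and -0.149 between same-numbered libraries. With 2 Het libraries these deviations mirror each other, so the check cannot tell whether same-numbered libraries share a litter or batch.

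In ciliated-like cells 20 to 62 cells per library limit what can be seen. With mixed cells left out, 0 members were called (0 unadjusted, median -0.0016). With cells thinned to 10000 UMIs, 0 members were called and 2 were under an unadjusted p of 0.05. Of all genes, 3 of 3069 were called with mixed cells left out and 20 of 5004 with thinned cells.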
